A study of Mus musculus with 32 samples.

Results

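Chemokines are small secreted proteins that steer leukocytes and blood progenitors along concentration gradients by binding G protein-coupled receptors. The 9 genes described here, of 41388 listed per library, are 5 ligands (Ccl3, Ccl4, Ccl5, Ccl6, Ccl9) and 4 receptors (Ccr1, Ccr2, Cxcr2, Cxcr4). They were taken by name, irrespective of their levels. All 9 had enough counts to be tested in both cohorts. Ccl3 is known as an inhibitor of the proliferation of blood stem and progenitor cells and binds Ccr1. Ccl4 attracts monocytes and lymphocytes, Ccl5 binds several receptors including Ccr1, and Ccl6 and Ccl9 are mouse ligands of Ccr1. Ccr2 brings monocytes out of the marrow, Cxcr2 does so for neutrophils, and Cxcr4 holds stem cells in the marrow through its ligand Cxcl12.

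RNA was sequenced from hematopoietic stem cells (HSC) and multipotent progenitors (MPP) of C57BL/6 mice. HSC were gated as CD150+ CD48- and MPP as CD150- CD48- cells, both within the Lin- cKit+ Sca1+ fraction, from pools of mice of both sexes. The labels give replicates as pools of 3 male and 3 female mice, and also speak of a pool of 5 and 5. The Vav cohort, 8 weeks old, had 4 groups of 3 libraries: controls labelled wild-type and Jarid2-KO mice, HSC and MPP of each, with Vav-Cre as the driver label of every group, a transgene active throughout the blood lineage. The Mx1 cohort, 10 weeks old and 2 months after pIpC, had 6 groups of 2 libraries: controls labelled wild-type, Jak2V617F, and Jak2V617F with Jarid2KO (the double mutant), HSC and MPP of each. Mx1-Cre, its driver label in every group, is induced by interferon and is not limited to blood cells. Jarid2 is a cofactor of the Polycomb repressive complex PRC2, which places the histone mark H3K27me3, and Jak2V617F is an overactive form of a cytokine receptor kinase. The series' design text names a Jarid2-KO group without Jak2V617F in the Mx1 cohort where the sample labels name Jak2V617F. The labels were followed.

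The libraries held 10473535 to 27232379 counts in the Vav cohort and 7852483 to 20724168 in the Mx1 cohort. Jarid2 itself was not lower in the libraries labelled knockout, at 80.2 to 144 CPM (counts scaled to a common library total) against 77.6 to 126 in Vav controls, and at 52.6 to 169 in the double mutant against 45.6 to 69.1 in the other Mx1 libraries. These counts cover all exons, the deleted part is not given in the labels, and so they do not check the deletion. In the Vav libraries 10 HSC genes summed to 3020 to 3989 CPM in HSC and 3016 to 3616 CPM in MPP, so this sum did not tell the cell types apart. Slamf1, which encodes CD150, did, at 57.4 to 95.5 CPM in HSC. Its log2 fold change in MPP against HSC was -3.90 in controls and -3.60 in Jarid2-KO. The 8 Mx1 control and Jak2V617F libraries did not carry such levels, with an HSC sum of 180.7 to 381.9 CPM. Slamf1 stood at 0.196 to 12.7 CPM in those labelled HSC, while 16 granulocyte and monocyte genes summed to 19430 to 82690 CPM in the 8. The 4 double-mutant libraries lay at 926.7 to 3543 CPM for the HSC list and 3126 to 6968 CPM for the granulocyte-monocyte list. Mx1 libraries are therefore called by their label. Heart muscle genes made up 4.04% to 6.16% of counts in 6 Mx1 libraries of all 3 genotypes and at most 0.81% in the others. Jarid2-KO MPP replicate 1 of the Vav cohort stood apart, with a granulocyte-monocyte sum of 24580 CPM against at most 14380 in the other Vav libraries. Its 13 immediate early genes, such as Fos and Jun, summed to 1657 CPM against at most 460.1 in the other Vav libraries. Xist was at 1.82 CPM although the pools are labelled as of both sexes, and its level in the other libraries is not given here.

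The 5 ligand genes lie within 139 kb of mouse chromosome 11 (mm10), with Ccl3, ENSMUSG00000000982, at chr11:83647844-83649355 on the minus strand and Ccl4, ENSMUSG00000018930, at chr11:83662584-83664683 on the plus strand, 13228 bases away. Ccl5, ENSMUSG00000035042, lies at chr11:83525778-83530518, Ccl9, ENSMUSG00000019122, at chr11:83572919-83578636 and Ccl6, ENSMUSG00000018927, at chr11:83587882-83593087, all on the minus strand. The RNA gene E230016K23Rik overlaps Ccl6 on the other strand and the counting strand is not stated, so that the Ccl6 counts are uncertain, although E230016K23Rik itself averaged at most 0.337 CPM in any group. Ccr1 (ENSMUSG00000025804, chr9:123962126-123968692) and Ccr2 (ENSMUSG00000049103, chr9:124101950-124113557) lie 133257 bases apart on chromosome 9. Cxcr2 (ENSMUSG00000026180, chr1:74153989-74161246) and Cxcr4 (ENSMUSG00000045382, chr1:128588199-128592293) lie on chromosome 1.

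The 250 bases before the RefSeq start (GRCm38.p6, gene strand) are shown for the 3 ligands with an entry. They are also shown for Cxcr4, which held the most CpG of the member windows. Capitals mark CpG dinucleotides, 2 in each ligand promoter and 19 in that of Cxcr4.
Ccl3 (chr11:83649379-83649628, minus strand): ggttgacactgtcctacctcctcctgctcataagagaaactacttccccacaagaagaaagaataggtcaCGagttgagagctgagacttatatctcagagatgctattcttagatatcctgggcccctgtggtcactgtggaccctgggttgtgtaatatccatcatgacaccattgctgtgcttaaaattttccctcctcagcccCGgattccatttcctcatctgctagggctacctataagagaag
Ccl9 (chr11:83578637-83578886, minus strand): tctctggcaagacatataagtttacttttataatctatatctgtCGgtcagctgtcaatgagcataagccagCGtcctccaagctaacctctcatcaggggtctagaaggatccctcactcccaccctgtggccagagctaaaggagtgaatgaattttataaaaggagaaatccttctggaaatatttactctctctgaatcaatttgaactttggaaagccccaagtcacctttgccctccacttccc
Ccl6 (chr11:83593088-83593337, minus strand): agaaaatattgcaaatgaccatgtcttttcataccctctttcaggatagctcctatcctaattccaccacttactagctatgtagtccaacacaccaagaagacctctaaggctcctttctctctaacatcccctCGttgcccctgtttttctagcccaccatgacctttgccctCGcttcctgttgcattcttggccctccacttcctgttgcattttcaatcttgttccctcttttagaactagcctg
Cxcr4 (chr1:128592300-128592549, minus strand): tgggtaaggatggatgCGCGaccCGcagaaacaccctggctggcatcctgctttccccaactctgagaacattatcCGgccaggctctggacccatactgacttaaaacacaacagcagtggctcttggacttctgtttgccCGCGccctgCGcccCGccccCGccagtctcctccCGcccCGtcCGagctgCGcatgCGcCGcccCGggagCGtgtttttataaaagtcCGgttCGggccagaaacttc
Of 32851 promoter windows of this length, the median held 6 CpG, 71.0% held more than the ligands and 17.9% more than Cxcr4. The windows of Ccr1, Ccr2 and Cxcr2 held 1 CpG each. Among the ligands shown and these receptors, only Ccl3 passed the genotype tests of the main edgeR fit of the Vav cohort given below. Some alternative fits also called Ccl6, Ccl9 or Ccr2. A relation of CpG content to genotype was not tested. In the 7 member windows, both strands were searched for 3 short motifs, none of which overlapped another. The core RUNX motif TGTGGT, present in 14.0% of all windows, begins 122 bases before the Ccl3 start and also occurs for Ccr1. The PU.1 core GAGGAA, in 23.3% of all windows, occurs on the minus strand 33 bases before the Ccl3 start and in the windows of Ccr1 and Cxcr2. The AP-1 motif TGANTCA, in 6.75% of all windows, lies 53 bases before the Ccl9 start. These matches describe letters only.

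In the Vav cohort, Ccl3 stood at 10.4, 8.49 and 7.20 CPM in the 3 control HSC libraries and at 0.996, 2.21 and 1.56 CPM in Jarid2-KO HSC. In control MPP it stood at 77.4, 82.8 and 62.6 CPM, and in Jarid2-KO MPP at 12.5, 14.3 and 15.6 CPM. The 4 groups did not overlap, in the order control MPP, Jarid2-KO MPP, control HSC, Jarid2-KO HSC. Ccl3 was 5.66-fold lower in Jarid2-KO than in control HSC (log2 fold change -2.50, SE 0.30, adjusted p = 0.00233, edgeR quasi-likelihood test) and 5.24-fold lower in MPP (log2 fold change -2.39, SE 0.28, adjusted p = 0.00144). Between MPP and HSC the log2 effects of genotype on Ccl3 differed by 0.11 (SE 0.38, adjusted p = 1, edgeR), which did not pass. In all 12 alternative fits of each genotype comparison Ccl3 stayed past the threshold of 0.05, with log2 values of -2.85 to -2.24 in HSC and -2.48 to -2.33 in MPP, and without Jarid2-KO MPP replicate 1 the MPP value was -2.33 (adjusted p = 6.02e-04, edgeR). RNA of sorted cells in bulk does not tell fewer cells with a transcript from less transcript in each cell.

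**Figure D1:**
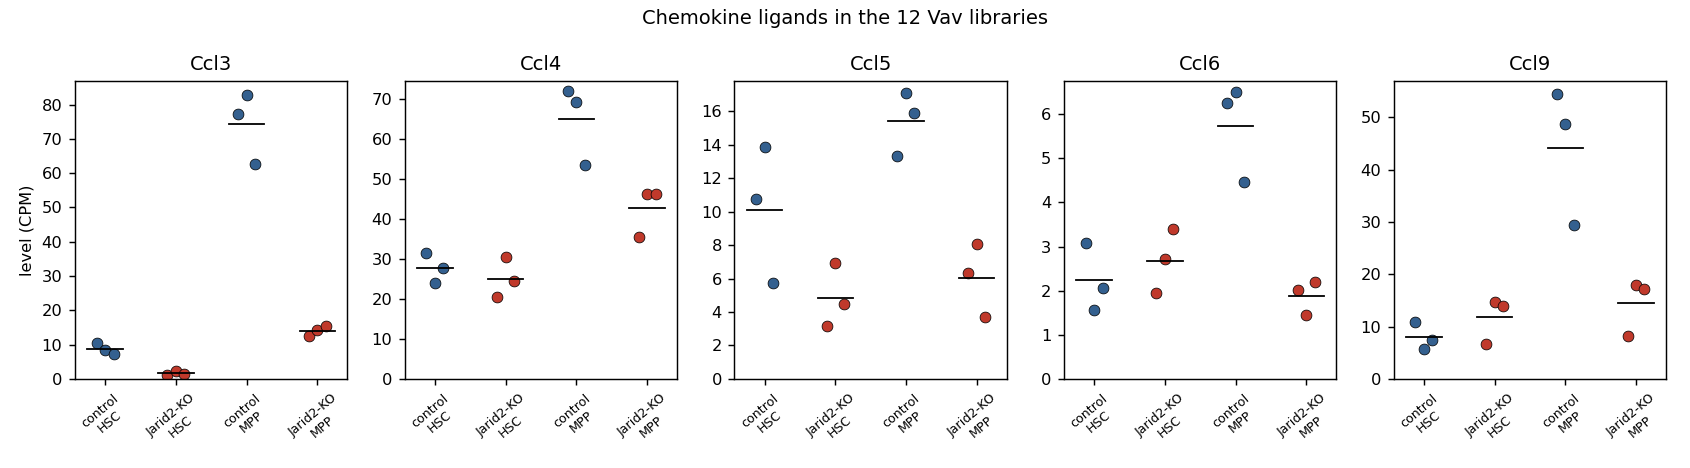
Level in CPM of the 5 ligands in each Vav library (points) with the group mean (line), on axes that start at 0, controls in blue and Jarid2-KO in red. Ccl3 is lower in every Jarid2-KO library than in every control library of the same cell type, while Ccl4 overlaps between genotypes in HSC.

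Ccl4, the nearest of the other ligand genes to Ccl3, did not pass the test for genotype. Control HSC held 31.4, 24.03 and 27.8 CPM and Jarid2-KO HSC 20.5, 30.4 and 24.4 CPM (log2 fold change -0.21, SE 0.21, adjusted p = 0.637, edgeR), and the groups overlap. In MPP, controls held 71.9, 69.2 and 53.4 CPM and Jarid2-KO libraries 35.5, 46.1 and 46.2 CPM (log2 fold change -0.60, SE 0.21, adjusted p = 0.15, edgeR). Those MPP groups do not overlap, but the difference did not pass over all genes.

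Because both genes are counted in the same library, their ratio is free of the library scaling. The ratio of Ccl3 to Ccl4 counts was 0.259 to 0.354 in control HSC and 0.0487 to 0.0728 in Jarid2-KO HSC. In MPP it was 1.08 to 1.2 in controls and 0.309 to 0.351 in Jarid2-KO. Within a cell type no library of one genotype reached the other, and the ratios of Jarid2-KO MPP lay within the range of control HSC. The ratio was 4.21-fold lower in Jarid2-KO over both cell types (difference -2.07 on the log2 scale, -2.36 in HSC and -1.79 in MPP, two-sided exact permutation test within cell type, p = 0.005, the smallest that 400 arrangements allow, p = 0.015 adjusted over 3 ratio tests). This measure was chosen after the levels were seen and uses the same Ccl3 counts as above.

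**Figure D2:**
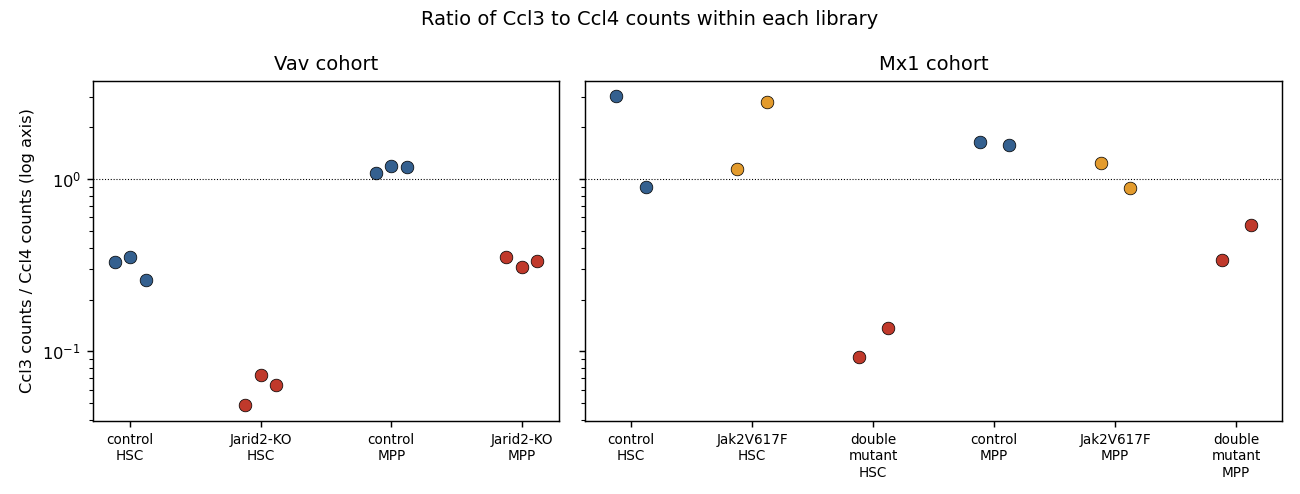
Ratio of Ccl3 to Ccl4 counts in each of the 24 libraries on a log axis, by labelled group, with controls in blue, Jak2V617F in orange and Jarid2-KO or double mutant in red; the dotted line is an equal count. The libraries labelled Jarid2-KO or double mutant have the lowest ratio for each cell type in both cohorts, from 0.0487 to 0.351 in Vav and from 0.0929 to 0.543 in Mx1.

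The other 3 ligands were low to moderate. Ccl9 stood at 10.95, 5.76 and 7.53 CPM in control HSC, 6.73, 14.8 and 13.9 CPM in Jarid2-KO HSC, 54.5, 48.7 and 29.4 CPM in control MPP and 8.21, 18.0 and 17.2 CPM in Jarid2-KO MPP. Only the control MPP libraries were apart from the rest. Ccl9 was 3.04-fold lower in Jarid2-KO than in control MPP, without passing (log2 fold change -1.61, SE 0.37, adjusted p = 0.0595, edgeR), and had a log2 value of 0.49 (SE 0.37, adjusted p = 0.516, edgeR) in HSC. Ccl6 was lower in level, 4.45 to 6.498 CPM in control MPP against 1.45 to 2.20 CPM in Jarid2-KO MPP (log2 fold change -1.59, SE 0.40, adjusted p = 0.0766, edgeR), without overlap. Its HSC groups overlapped, at 1.57 to 3.09 and 1.94 to 3.39 CPM. Ccl5 ranged over 5.73 to 13.8 CPM in control HSC and 3.14 to 6.94 CPM in Jarid2-KO HSC, and over 13.3 to 17.1 CPM in control MPP and 3.72 to 8.07 CPM in Jarid2-KO MPP. Its log2 fold changes of -1.13 (SE 0.41, adjusted p = 0.197) in HSC and -1.35 (SE 0.41, adjusted p = 0.11) in MPP did not pass with edgeR.

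The receptors gave no call by genotype in the main edgeR fit of this cohort. With no filter on low counts edgeR called Ccr2 in HSC (adjusted p = 0.0261). Cxcr4 lay at 39.6, 47.2 and 30.0 CPM in control HSC and 24.96, 36.2 and 37.9 CPM in Jarid2-KO HSC, and at 35.0, 50.2 and 35.3 CPM in control MPP and 29.8, 56.5 and 39.7 CPM in Jarid2-KO MPP. All 4 groups overlapped, with log2 fold changes of -0.32 (SE 0.27) in HSC and 0.06 (SE 0.27) in MPP. Ccr2 stood at 2.57, 2.21 and 4.22 CPM in control HSC and 5.18, 7.86 and 13.1 CPM in Jarid2-KO HSC, and at 4.85, 19.1 and 9.22 CPM in control MPP and 4.01, 6.63 and 3.25 CPM in Jarid2-KO MPP. Its HSC groups did not overlap and its MPP groups did. The log2 fold change of Ccr2 was 1.46 (SE 0.49, adjusted p = 0.178) in HSC and -1.25 (SE 0.49, adjusted p = 0.189) in MPP with edgeR, neither past the threshold. Ccr1 at 0.349 to 5.01 CPM and Cxcr2 at 2.14 to 7.39 CPM were low in every Vav library, and neither passed in HSC or MPP.

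By count, edgeR called 1 of the 9 genes, Ccl3, in each genotype comparison, where it called 0.569% of 15818 genes in HSC (0.316% lower) and 0.948% in MPP (0.436% lower). At an unadjusted p under 0.05, 3 of the 9 stood in HSC and 6 in MPP, as did 2695 and 3055 of the 15818 genes. DESeq2 called Ccl3 alone of the 9 in HSC, where it called 4.23% of the genes tested, and 4 in MPP (Ccl3, Ccl5, Ccl6 and Ccl9), where it called 7.08% of the genes tested. Without Jarid2-KO MPP replicate 3, edgeR called 3 in MPP, with Ccl6 and Ccl9 (adjusted p = 0.0339 and 0.0273), but 9.03% of all genes were called in that fit. The median log2 fold change of the 9 was 0.20 in HSC and -1.25 in MPP, against -0.03 and 0.02 over all genes tested. For the difference of the genotype effect between MPP and HSC, edgeR called 0 of the 9 and 0% of all genes, with 3 of the 9 and 419 of all genes under an unadjusted p of 0.05, and DESeq2 called 0 of the 9. Those 3 had log2 differences of -2.10 for Ccl9 (SE 0.52), -2.71 for Ccr2 (SE 0.69) and -1.80 for Ccl6 (SE 0.56).

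**Figure D3:**
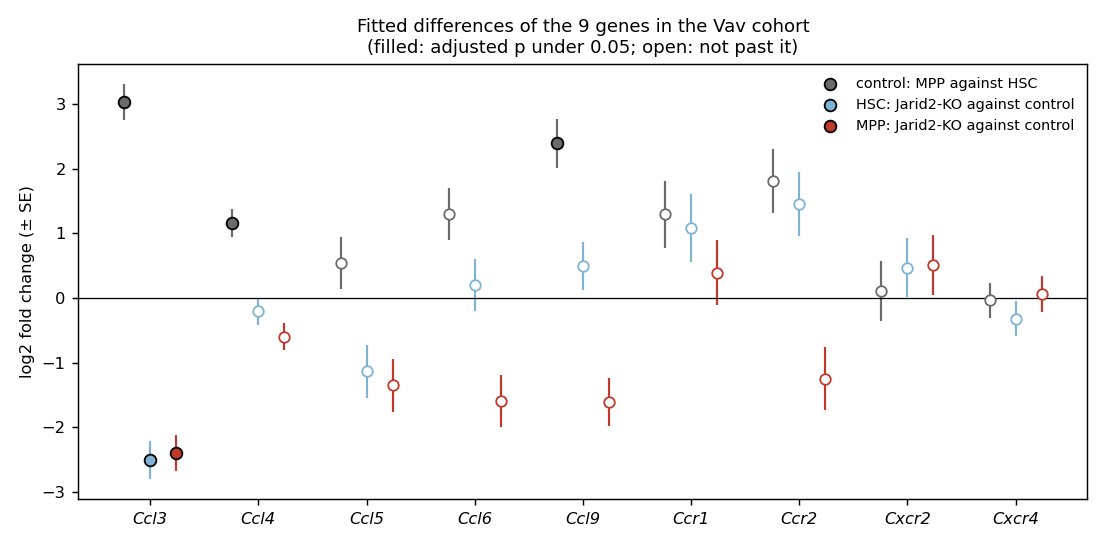
Fitted log2 fold change with its standard error for the 9 genes in 3 comparisons of the Vav cohort; filled points have an adjusted p under 0.05. Ccl3 alone is filled in both genotype comparisons, and Ccl3, Ccl4 and Ccl9 are filled for control MPP against HSC.

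Between cell types, 3 ligands rose from control HSC to control MPP. Ccl3 was 8.17-fold higher (log2 fold change 3.03, SE 0.29, adjusted p = 9.29e-05), Ccl9 was 5.24-fold higher (2.39, SE 0.38, adjusted p = 0.00634) and Ccl4 was 2.24-fold higher (1.16, SE 0.21, adjusted p = 0.0153) with edgeR. These were 3 of 9 genes, where 1.17% of all genes were called (0.512% higher). The call of Ccl4 was lost without control HSC replicate 2 or 3 or without control MPP replicate 1 or 2, with adjusted p = 0.0669 to 0.0921 (edgeR), and that of Ccl9 without control HSC replicate 2 (adjusted p = 0.05, edgeR), which left 1 call. DESeq2 called 5 of the 9, adding Ccl6 and Ccr2, where it called 2.99% of genes. In Jarid2-KO cells Ccl3 alone rose, 8.83-fold from HSC to MPP (log2 fold change 3.14, SE 0.30, adjusted p = 1.4e-04, edgeR), 1 of 9 where 0.525% of genes were called (0.177% higher), and DESeq2 added Ccl4 where it called 2.53%. Ccl9 had a log2 value of 0.29 (SE 0.37) in that comparison. The genotype and cell type comparisons share libraries, and their values are set side by side only.

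Per length, as RPKM (CPM per kilobase of exon), Ccl4 led the 9 genes in both kinds of control cells with Ccl3 beside it in MPP. In control MPP, Ccl4 stood at 98.2 RPKM ± 15.1 and Ccl3 at 96.9 ± 13.7 (SD, n = 3), which overlap, then Cxcr4 at 22.2 ± 4.80, Ccl5 at 16.1 ± 2.01 and Ccl9 at 14.5 ± 4.32, where Ccl5 and Ccl9 overlap and the SD ranges of Cxcr4 and Ccl5 meet. In control HSC the order was Ccl4 at 42.01 ± 5.57, Cxcr4 at 21.5 ± 4.78, Ccl3 at 11.3 ± 2.08 and Ccl5 at 10.5 ± 4.27 RPKM (SD, n = 3), the last pair overlapping. In Jarid2-KO HSC, Ccl3 was at 2.07 ± 0.80 RPKM, below Ccl5 at 5.06 ± 2.00 RPKM in every library and overlapping Ccl9 at 3.88 ± 1.46 RPKM (SD, n = 3). Ccl6 and the receptors Ccr1, Ccr2 and Cxcr2 averaged at most 3.20 RPKM in any Vav group.

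Some marker sums of other cells also differed by genotype, not all in the direction of Ccl3. The summed level of 11 macrophage and dendritic genes was 484.7 to 504.8 CPM in control HSC and 165.2 to 275.1 CPM in Jarid2-KO HSC, and 525.1 to 733.2 against 303.9 to 312.1 CPM in MPP, with 8 to 11 of the 11 detected. Of its 10 tested genes, 6 had log2 fold changes above 0 in HSC (median 0.16) and 5 in MPP (median -0.18); edgeR called H2-Aa and Cd74 lower in HSC, and these with Cd68 in MPP. The sum was mostly Cd74, an antigen presentation gene, at 369 ± 22.6 CPM in control and 155 ± 41.8 CPM in Jarid2-KO HSC (SD, n = 3), while the tissue macrophage gene C1qa had at most 41 counts in a Vav library and 0 in 1 of 12. The sum of 8 MPP and lymphoid-primed genes was 1659 to 1873 CPM in control MPP and 758.7 to 1043 in Jarid2-KO MPP, with all 8 detected. In HSC it overlapped between genotypes, at 398.3 to 502.6 CPM in control and 354.1 to 526.9 in Jarid2-KO. EdgeR called Tespa1, Dntt, Satb1 and Il12a of this list lower in Jarid2-KO MPP, where it called 0.436% of all genes lower. Their log2 fold changes were -2.32, -1.38, -1.34 and -1.03 (adjusted p = 0.00148, 0.0318, 0.0351 and 0.0318, edgeR). At an unadjusted p under 0.05 there were 6 of the 8 in HSC and 6 in MPP. The granulocyte-monocyte sum ran higher in Jarid2-KO, with overlap in both cell types. It was 1294 to 3917 CPM in control and 3449 to 9412 in Jarid2-KO HSC. In MPP it was 4986 to 6528 CPM in control and 6400 to 24580 in Jarid2-KO. Of the 16 granulocyte-monocyte genes, 13 in HSC and 10 in MPP had an unadjusted p under 0.05 (edgeR, either direction). Of all 15818 genes tested, 2695 and 3055 did. The T and NK sum overlapped between genotypes in each cell type, at 76.5 to 272 CPM over the cohort, and the T-cell gene Cd3e was at 0 in 8 of 12 Vav libraries with at most 2 counts. The sum of 5 mast cell and basophil genes was 20.95 to 73.32 CPM in control and 10.47 to 12.64 CPM in Jarid2-KO MPP, without overlap, and 14.61 to 80.99 against 11.45 to 32.98 CPM in HSC, with overlap, with 4 or 5 of the 5 detected. All 5 had log2 fold changes below 0 in both cell types (medians -1.31 in HSC and -2.30 in MPP); edgeR called 0, with 3 in HSC and 5 in MPP at an unadjusted p under 0.05. The part of any of these cells in the Ccl3 difference was not tested.

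The rest of the chemokine pathway was read from lists of 84 genes. Beside them, edgeR called 0.569% of all 15818 genes by genotype in HSC and 0.948% in MPP. At an unadjusted p under 0.05 there were 2695 and 3055 of all genes. The medians over all genes are given above. Of 30 other ligands 14 were tested, with a median log2 fold change of -0.98 in HSC and -0.19 in MPP. In MPP 1 rose, Cxcl12, the ligand of Cxcr4 made by marrow stroma (log2 fold change 4.35, SE 0.97, adjusted p = 0.0489, edgeR). It stood at 51.0, 22.2 and 2.48 CPM in Jarid2-KO MPP and at 0.181, 2.68 and 0.926 CPM in controls, and the groups overlap. The highest is Jarid2-KO MPP replicate 1, in which 12 stroma and endothelium genes also summed to 582.0 CPM against at most 258.3 in other Vav libraries. In Jarid2-KO MPP replicate 2, with Cxcl12 at 22.2 CPM, this sum was 179.8 CPM, below the 211.9 to 258.3 CPM of control MPP. The part of stroma and endothelium cells was not tested. In HSC edgeR called 0 of the 14, with 6 at an unadjusted p under 0.05 and 1 called by DESeq2.

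Of 20 other receptors 12 were tested and edgeR called 0 in either cell type, with 1 in HSC and 2 in MPP under an unadjusted p of 0.05, and 0 and 1 called by DESeq2. Of 20 genes of receptor signalling 19 were tested, and 1 fell in HSC, Rgs1, which dampens signalling by chemokine receptors. Rgs1 stood at 176, 97.7 and 188 CPM in control HSC and 63.9, 59.6 and 58.3 CPM in Jarid2-KO HSC (log2 fold change -1.40, SE 0.25, adjusted p = 0.0275, edgeR), without overlap. In MPP it stood at 204, 152 and 166 CPM in controls and 90.6, 85.3 and 147 CPM in Jarid2-KO, also without overlap (log2 fold change -0.69, SE 0.25, adjusted p = 0.163, edgeR). Of 14 NF-kB factors and targets, the pathway that drives Ccl3 and Ccl4 in activated myeloid cells, edgeR called 0, with 2 in HSC and 3 in MPP under an unadjusted p of 0.05 and 0 and 2 called by DESeq2. Their median log2 fold change was 0.16 in HSC and 0.49 in MPP.

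In the Mx1 cohort the receptors Ccr1, Ccr2 and Cxcr2 and the ligands Ccl6 and Ccl9 were lower in every double-mutant library than in every other library. The share of all genes that separated these libraries in the same way is not given here. The separation is therefore not read as particular to these genes. Ccr1 stood at 47.6 and 34.1 CPM in libraries labelled control HSC, 94.0 and 19.1 in Jak2V617F HSC and 5.49 and 1.44 in double-mutant HSC. In libraries labelled MPP it stood at 55.8 and 13.9 CPM in control, 31.6 and 22.7 in Jak2V617F and 0.569 and 0.891 in the double mutant, the last from 6 and 7 counts. Every double-mutant library was below every other library. Ccr2 showed the same separation, at 34.6 to 105 CPM in the 8 control and Jak2V617F libraries and at 14.1, 4.54, 0.190 and 5.73 CPM in the 4 double-mutant libraries. So did Cxcr2, at 12.2 to 65.0 CPM in the 8 and at 3.84, 2.22, 2.46 and 1.15 CPM in the 4. Cxcr4 differed less, at 23.4 to 35.1 CPM in the 8 and 19.7 to 24.96 CPM in the 4, which overlap.

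None of these differences passed in edgeR over 19616 genes, with 6 residual degrees of freedom and groups of 2. For the double mutant against Jak2V617F, Cxcr2 had log2 fold changes of -4.08 (SE 0.87, adjusted p = 0.202) in HSC and -3.25 (SE 0.86, adjusted p = 0.808) in MPP, and Ccr1 of -4.24 (SE 1.02, adjusted p = 0.214) and -5.29 (SE 1.11, adjusted p = 0.503). Against control, which shares the same double-mutant libraries, Cxcr2 was at -4.41 (SE 0.89, adjusted p = 0.073) in HSC and Ccr1 at -5.83 (SE 1.14, adjusted p = 0.153) in MPP with edgeR. EdgeR called 0 of the 9 genes and 0% of all genes in each of the 9 Mx1 comparisons, where 212 to 1249 of all genes had an unadjusted p under 0.05. At an unadjusted p under 0.05 there were 5 of the 9 in HSC and 4 in MPP against Jak2V617F, and 5 and 5 against control. DESeq2 called 3 of the 9 in HSC (Ccl9, Ccr1 and Cxcr2) and 3 in MPP (Ccr1, Ccr2 and Cxcr2) against Jak2V617F, where it called 1.72% and 0.362% of genes. Against control it called 4 in HSC (Ccl9, Ccr1, Ccr2 and Cxcr2) and 3 in MPP (Ccr1, Ccr2 and Cxcr2), where it called 2.25% and 1.17%. Without control MPP replicate 2, edgeR called 2 for the double mutant against control MPP, Ccr1 and Cxcr2 (adjusted p = 0.00394 and 0.00469), where it called 0.578% of all genes. For Jak2V617F against control edgeR and DESeq2 called 0 of the 9, and 0 stood at an unadjusted p under 0.05.

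**Figure D4:**
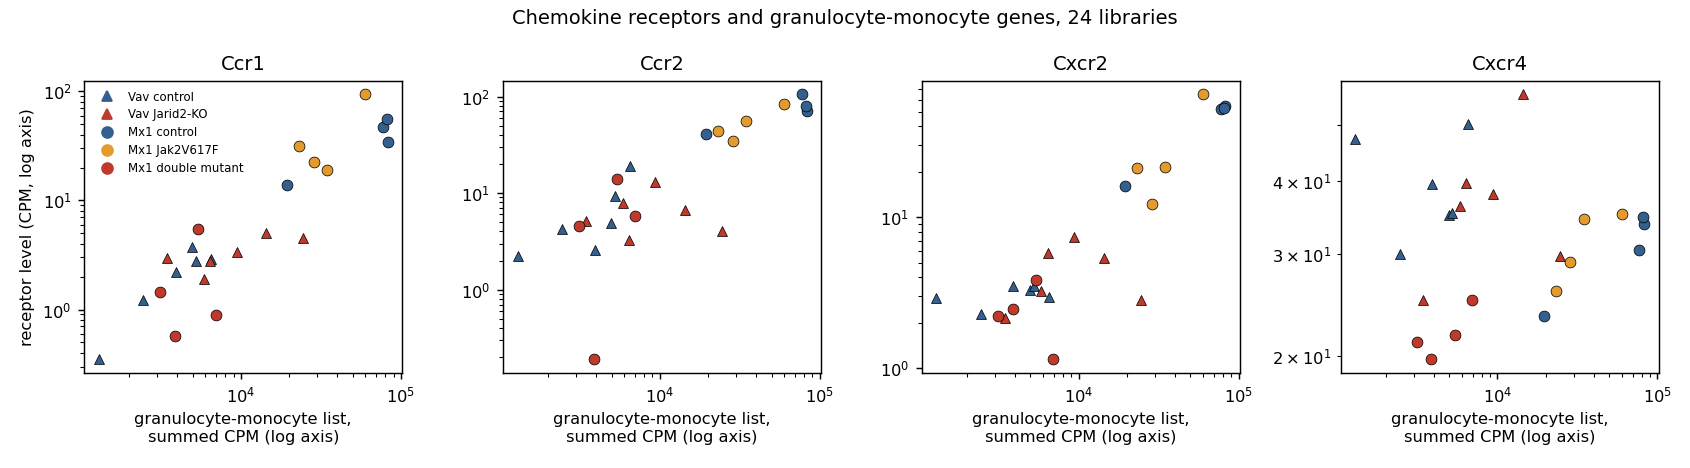
Level in CPM of each receptor (vertical, log axis) against the summed CPM of 16 granulocyte and monocyte genes (horizontal, log axis) in 24 libraries, triangles for Vav and circles for Mx1. The Mx1 control and Jak2V617F libraries lie at the upper right for Ccr1, Ccr2 and Cxcr2, with sums of 19430 to 82690 CPM, and the double-mutant libraries lie beside the Vav libraries. Vav Jarid2-KO MPP replicate 1 has a sum of 24580 CPM, inside that range. Its Ccr1, Ccr2 and Cxcr2 are lower than in every Mx1 control or Jak2V617F library.

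The granulocyte-monocyte sum separated the same libraries, at 19430 to 82690 CPM in the 8 and 3126 to 6968 CPM in the 4, with all 16 genes detected in every library, and the neutrophil gene Ly6g reached 1184 counts in the Mx1 cohort and 61 in the Vav cohort. The mast cell and basophil sum separated them only barely, at 103.6 to 947.4 CPM in the 8 and 9.951 to 103.0 CPM in the 4. All 5 genes of that list were detected in every library. The T and NK sum overlapped, at 162.2 to 960.7 and 71.71 to 175.5 CPM. The part of any of these cells in the receptor differences was not tested. In a fit with a term for the libraries rich in heart muscle counts, Cxcr2 passed in HSC against Jak2V617F (log2 fold change -3.81, adjusted p = 0.0104, edgeR), where 2.75% of all genes were called.

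The Mx1 ligands split. Ccl9, at 24.9 to 94.5 CPM in the 8 control and Jak2V617F libraries, was at 15 and 4.65 CPM in double-mutant HSC and 14.1 and 24.8 CPM in double-mutant MPP, below all of them; the last was close, at 24.8 against 24.9 CPM in control MPP replicate 2. Ccl6 was at 17.6 to 38.3 CPM in the 8 and at 15.3, 1.99, 9.57 and 3.18 CPM in the 4, also without overlap. Ccl4 ran against them, at 0.855 to 11.8 CPM in the 8 and at 10.8 and 23.7 in double-mutant HSC and 17.8 and 41.5 CPM in double-mutant MPP, with 1 library of the 8 above the lowest double-mutant library. Ccl3 overlapped, at 2.05 to 18.0 CPM in the 8 and 1.00, 3.21, 6.07 and 22.5 CPM in the 4. Ccl5, at 5.18 to 65.9 CPM in the 8, spanned 0.663 to 21.4 CPM within double-mutant MPP alone.

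The ratio of Ccl3 to Ccl4 counts was 0.891 to 3.02 in the 8 control and Jak2V617F libraries and 0.0929, 0.136, 0.340 and 0.543 in the 4 double-mutant libraries, with no overlap. It was 6.24-fold lower than in Jak2V617F (log2 difference -2.64) and 7.43-fold lower than in control (-2.89), each with p = 0.0556 in a two-sided exact permutation test within cell type, the smallest that 36 arrangements allow, so that these tests could not pass 0.05. The double-mutant libraries are the same in both tests. By cell type the log2 difference was -3.99 in HSC and -1.29 in MPP against Jak2V617F, and -3.88 and -1.91 against control. In MPP the fitted Ccl3 was not lower, at log2 fold changes of 1.80 (SE 1.18) against Jak2V617F and 0.59 (SE 1.15) against control. Ccl4 was at 2.92 (SE 1.21) and 2.35 (SE 1.18) there. In HSC Ccl3 was at -2.30 (SE 1.21) and -3.10 (SE 1.25), and Ccl4 at 1.06 (SE 1.14) and 0.79 (SE 1.13). The summed macrophage and dendritic level was 930.8 to 1984 CPM in the 4 and 345.8 to 765.7 CPM in the 8. At an unadjusted p under 0.05 (edgeR) there was 1 gene of this list in HSC and 2 in MPP against Jak2V617F, and 2 and 2 against control. A sum can rest on few of its genes. The part of macrophages and dendritic cells in the ratio was not tested.

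Between cell types within the Mx1 cohort, edgeR and DESeq2 called 0 of the 9 genes in any genotype, with 2 at an unadjusted p under 0.05 in the double mutant (Ccl3 with a log2 fold change of 2.89, SE 1.24, and Ccr1 with -2.28, SE 1.02) and 0 in control and Jak2V617F. Of the pathway lists edgeR called 0 genes in any Mx1 comparison, with at most 4 of a list at an unadjusted p under 0.05 and at most 1 called by DESeq2.

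**Figure D5:**
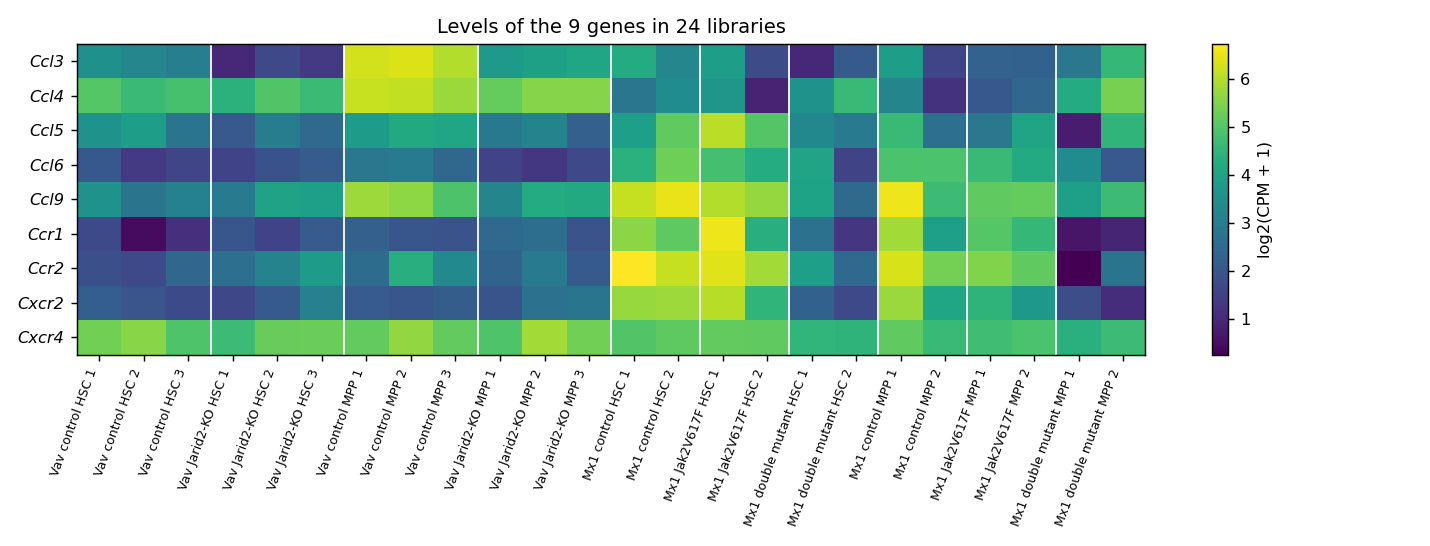
Levels of the 9 genes as log2(CPM + 1) in 24 libraries, in columns by group and replicate, with white lines between groups. Ccl3 and Ccl4 are highest in Vav control MPP, at 62.6 to 82.8 and 53.4 to 71.9 CPM, while Ccr1, Ccr2 and Cxcr2 are high in the Mx1 libraries labelled control and Jak2V617F.

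Over the 12 Vav libraries, which form 4 groups, Pearson correlations of log2 CPM among 10175 genes describe whose pattern was nearest. For Ccl3 these were Satb1 (r = 0.96), Gimap7 (0.956) and Trim16 (0.952), at 0.376, 0.693 and 0.53 over the 12 Mx1 libraries. For Ccl4 they were Vldlr (0.975), Ctss (0.968) and Tnfaip8l2 (0.966), at -0.592, 0.0145 and -0.188 in Mx1, so that none of the 3 was near there. For Ccl9 they included Tnfaip8l2 (0.94) and Svip (0.939), at 0.862 and 0.899 in Mx1. For Ccr2 they were Ly86 (0.902), Retnlg (0.894) and Hus1 (0.85), at 0.753, 0.825 and -0.0481 in Mx1. For Ccl5 they were Agmo (0.877), Ep400 (0.854) and H2-Oa (0.848), at -0.75, 0.562 and 0.313 in Mx1. For Cxcr4 they were Picalm (0.807), Ccdc30 (0.801) and Phf10 (0.796), at -0.192, -0.433 and -0.126 in Mx1, all below 0. Ccl3 and Ccl4 had r = 0.928 in Vav and 0.476 in Mx1, and Ccr1 and Cxcr2 had 0.28 in Vav and 0.962 in Mx1. All these values share libraries, depth and the group differences above.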

How the data were processed

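Sorted HSC and MPP were sequenced after a SMARTer Ultra Low preparation from 3 to 5 ng of RNA, per the labels' protocols. Per the submitters' processing notes, the build was mm10 and the tools Partek 6.6, HTSeq 0.8.0, STAR 2.0.4, featureCounts 1.4.5 and Subread, with no role given. The deposited tables give raw counts per gene, CPM scaled by the authors to the library total, and RPKM as CPM per kilobase, per the file headers; values recomputed from the counts differed by at most 5.46e-11. Symbols were mapped from Ensembl identifiers, 40254 of 41388.

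Each cohort was fitted alone on the deposited counts, since exons are listed differently in the cohorts for 14573 genes: genes kept by filterByExpr (minimum count 10), TMM scaling, 1 mean per group, edgeR 4.0.16 quasi-likelihood test in R 4.3.3, and Benjamini-Hochberg adjustment over all genes tested in each of 14 comparisons. The code was tested on simulated counts. P-values measure the spread between libraries. The pool sizes in the labels do not settle whether each library came from its own mice. Alternatives were DESeq2 1.42.0, its size factors, no filter, a filter of 20, only the groups compared, each library left out, the replicate number as a block, and a term for libraries with over 4% heart muscle counts. Members and gene lists were chosen with earlier results of these data known. Named genes are the 9 members, genes of the pathway lists past the threshold, the 3 nearest patterns for each member with an average log2 CPM of at least 2, and markers; 1 of the nearest patterns is not reported here. The 8 H3K27me3 samples were not analysed here.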

Additional observations from a re-analysis of the deposited data

How the results depend on the processing

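No member changed direction while past the threshold under any alternative, and Ccl3 kept its 4 calls in the Vav cohort in all of them. Of the single-gene values under alternatives 1437 kept their side of the threshold, 52 gained a call and 5 lost one (Ccl4 and Ccl9, control MPP against HSC). Other calls depended on the test. DESeq2 called 4 of the 9 for Jarid2-KO against control MPP, 5 for control MPP against HSC and 2 for Jarid2-KO MPP against HSC, where edgeR called 1, 3 and 1, and for the double mutant it called 3 in HSC and 3 in MPP against Jak2V617F and 4 and 3 against control, where edgeR called 0. With no filter on low counts edgeR called 2 for Jarid2-KO against control HSC, 3 in MPP, 2 for the difference between them (Ccl9 and Ccr2), and 3, 3, 4 and 3 in the same 4 double-mutant comparisons, where the share called of all genes was also higher than with the filter, at 0.228% to 4.02%. Fitting only the groups compared gave 4 for the double mutant against control HSC (2.38% of all genes called), and the heart muscle term gave 1 for the double mutant against Jak2V617F HSC (2.75%), 1 against control HSC (2.34%) and 2 against control MPP (Ccl4 and Cxcr2, 1.58%). The cause was not tested. With single libraries left out the counts ran from 1 to 3 for control MPP against HSC, from 1 to 3 for Jarid2-KO against control MPP and from 0 to 2 for the double mutant against control MPP. Same-numbered Vav libraries had correlations of -0.254 to 0.299 between deviations from their group means (median 0.0142), and Mx1 libraries -0.5 to 0.523. Between MPP and HSC of the same genotype they ran from -0.00907 to 0.299 in Vav and from -0.0157 to 0.523 in Mx1. The highest was that of the double mutant. These values do not settle whether the numbers pair the samples. With the replicate number as a block the counts were the same in all 14 comparisons, 1, 1, 0, 3 and 1 in Vav and 0 in Mx1. Where Mx1 numbers looked crossed, the crossed block, chosen after seeing the data, gave 0 for the double mutant against Jak2V617F HSC and 2 against control MPP. The share of all genes called in those fits is not given here. Since the block was picked from the same data, no weight is put on these 2 calls. Groups of 2 limit what the Mx1 cohort can show.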
